A study of Mus musculus with 8 samples.

Results

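The Id inhibitors (Id1, Id2, Id3 and Id4) and the E proteins (Tcf3, Tcf4 and Tcf12) were followed in differentiating mouse myoblasts. The 7 genes were chosen by name as the partners and inhibitors of the myogenic basic helix-loop-helix (bHLH) factors. All 7 passed the filter on low values in each of 3 gene tables, among 12344, 11440 and 11084 genes kept in the female knockout, male knockout and KI tables. The rows were checked by chromosome. Tcf3 and Tcf4 here are the E protein genes on chromosomes 10 and 18, and not Tcf7l1 and Tcf7l2, which have carried the same names and have rows of their own.

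The cells were satellite cells, the stem cells of muscle, from B6/129 mice. They were grown with 20% fetal calf serum, 2.5 ng/mL FGF and 2.5 µM 4-hydroxytamoxifen, sorted for a red fluorescent reporter and differentiated for 24 h before total RNA was sequenced. The series compared UTX knockout (KO) with wild type (WT) in females and in males, with 1 library per group, and female KI with Ctrl-KI cells, with 2 libraries per group. UTX, encoded by Kdm6a, is an X-linked histone demethylase. Female WT cells carried Pax7-CreER, a tamoxifen-dependent Cre driven by the satellite cell gene Pax7, and the Cre-dependent TdTomato reporter at Rosa26. Female KO cells carried the floxed UTX allele as well. The labels give no genotype for the male and KI groups and do not say what allele KI carried. The growth and treatment protocols name only UTX KO and UTX WT mice with the reporter, for all 8 libraries.

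E proteins are broadly expressed bHLH transcription factors. Myod1, Myf5, Myog and Myf6, the muscle-specific bHLH factors, bind DNA as dimers with an E protein at the E-box sequence CANNTG. Id proteins keep the helix-loop-helix through which such dimers form but lack the basic region that contacts DNA, so a dimer with an Id protein does not bind. In myoblasts Id genes are typically high during growth and decline as cells leave the cell cycle and differentiate. BMP ligands, through their receptors and Smad proteins, are classical inducers of Id1, Id2 and Id3.

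Expression was given as FPKM, a fragment count corrected for transcript length and sequencing yield, with a confidence interval whose level is not stated. Each group had 1 column, pooled over 2 libraries in the KI table, so no single comparison has a test across samples, and a change is called where log2((FPKM + 1)/(FPKM + 1)), mutant over control, reached 1 (2-fold). Read depth is not given. Values under 0.3 FPKM had a most frequent mutant-to-control ratio of 0.664 in the female, 0.979 in the male and 0.841 in the KI table. Relative to the FPKM itself, the width of the interval had a median of 119% for female WT, 171% for male WT and 40.0% for Ctrl-KI. At 10 FPKM or more in both columns, the smallest fold at which intervals did not overlap was 2.28 in the female, 6.11 in the male and 1.47 in the KI table. Kdm6a, the targeted gene, stood at 20.8 (WT) and 16.9 FPKM (KO) in females, 7.87 (WT) and 2.08 FPKM (KO) in males, and 12.8 (Ctrl-KI) and 13.2 FPKM (KI). A whole-gene value says little about deletion of floxed exons whose position the labels leave out. Markers of the labelled cell type were present in all 6 columns, Myod1 between 104 and 1005 FPKM, Des between 308 and 1164 and Pax7 between 3.30 and 16.3. The pan-leukocyte gene Ptprc stayed at 0.224 FPKM or less. The share of all FPKM at loci without a symbol was 72.8% (WT) and 86.1% (KO) in males. When values were scaled to TPM (to a fixed sum per column) using every locus, the median log2 ratio over genes went from -0.02 to -0.70 in the male table and from -0.04 to -0.77 in the KI table. It took the share of higher genes among 2-fold calls from 60.5% to 9.12% in males and from 81.2% to 10.4% in KI. In females TPM moved the median from -0.08 to 0.10 and that share from 50.5% to 73.7%.

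RefSeq sequences (GRCm38.p6, a later build than the mm9 of the tables) of the 250 bases before the gene start were found for 5 of the 7 genes. Those of Id2, Id3 and Id4 are shown because these 3 members were past 2-fold in the male knockout. Capitals mark CANNTG, the E-box, and GGCGCC, a GC-rich sequence known from BMP-responsive elements of Id genes. Both motifs read alike on the 2 strands and did not overlap in these windows.
Id2 (chr12:25096093-25096342, minus strand): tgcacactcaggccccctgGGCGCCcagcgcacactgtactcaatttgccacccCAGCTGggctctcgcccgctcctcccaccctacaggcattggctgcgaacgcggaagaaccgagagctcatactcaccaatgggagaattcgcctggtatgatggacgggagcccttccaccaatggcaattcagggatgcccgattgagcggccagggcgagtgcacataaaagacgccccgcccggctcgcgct
Id3 (chr4:136143572-136143821, plus strand): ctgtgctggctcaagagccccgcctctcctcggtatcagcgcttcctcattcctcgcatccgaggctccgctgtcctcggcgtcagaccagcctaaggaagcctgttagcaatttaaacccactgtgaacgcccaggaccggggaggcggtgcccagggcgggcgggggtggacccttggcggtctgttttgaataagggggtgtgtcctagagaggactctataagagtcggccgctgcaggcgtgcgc
Id4 (chr13:48260866-48261115, plus strand): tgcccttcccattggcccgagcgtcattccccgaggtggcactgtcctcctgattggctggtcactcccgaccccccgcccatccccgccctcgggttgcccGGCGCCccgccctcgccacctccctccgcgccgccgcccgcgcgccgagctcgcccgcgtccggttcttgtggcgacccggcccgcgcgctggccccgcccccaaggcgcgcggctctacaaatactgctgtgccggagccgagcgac
The Id2 window held 1 E-box and 1 GGCGCC. The Id4 window held 1 GGCGCC and no E-box, and the Id3 window held neither. Of 32851 such windows in RefSeq, 66.2% held CANNTG and 9.59% held GGCGCC. These are letter matches, and nothing was measured at these sites here.

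In male myoblasts, 3 of the 4 Id inhibitors were more than 2-fold higher in the KO than in the WT library, and the fourth, Id1, was 1.40-fold higher. Among all genes of the male table, 9.90% were 2-fold higher and 16.4% were past 2-fold in either direction. In female myoblasts and in KI cells 0 of the 7 genes were past 2-fold in either direction, where 8.89% and 4.75% of all genes were. Deposited intervals of the 2 columns were apart for 0 of the 7 in females and in males, against 0.899% and 0.865% of all genes. In bulk RNA, a larger share of cells that express a gene and more RNA per cell cannot be told apart.

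**Figure D1:**
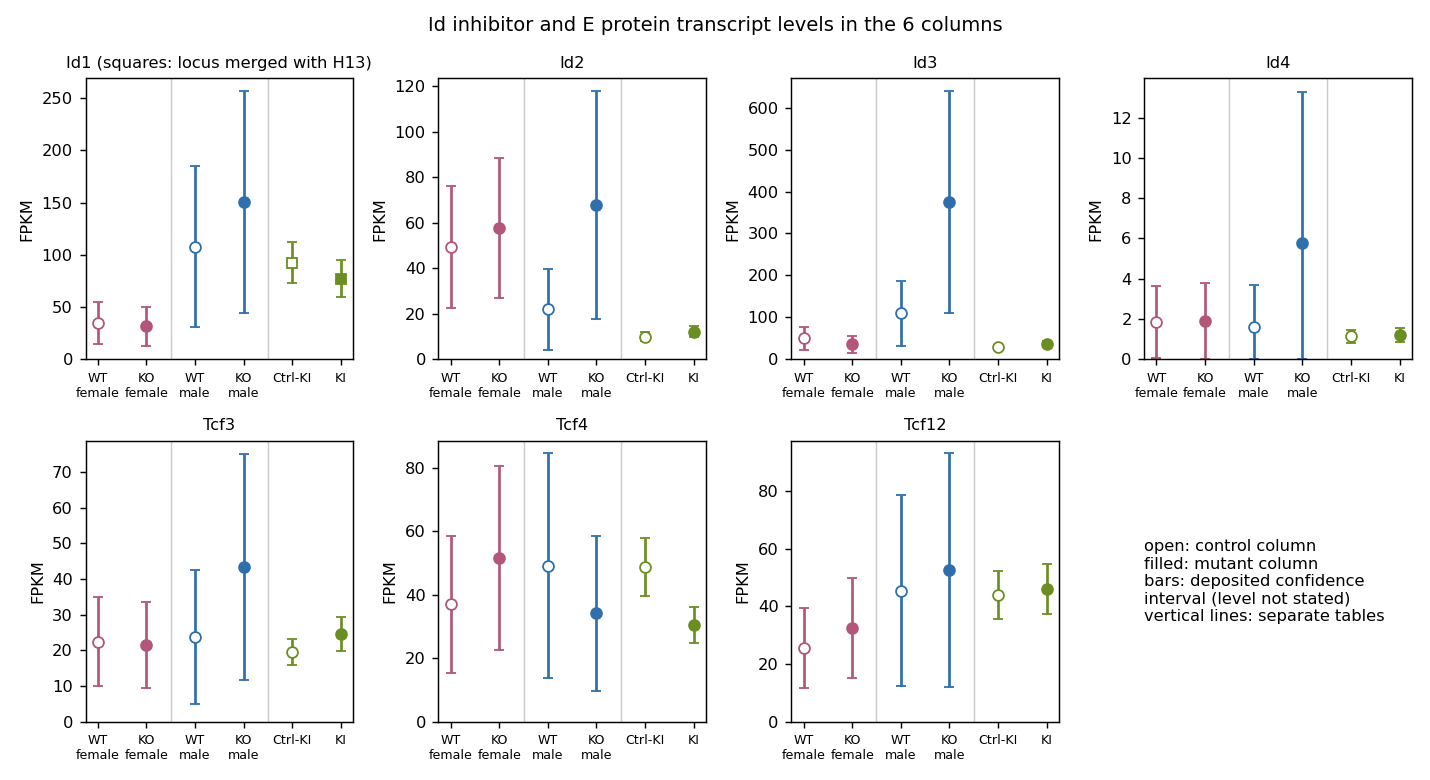
FPKM (linear axes from 0) of each Id and E protein gene in the 6 columns, open symbols for controls and filled symbols for mutants, with the deposited confidence intervals as bars. The male KO values of Id2 (67.7), Id3 (375) and Id4 (5.77) stand above male WT with overlapping intervals, and Tcf4 is the gene whose KI interval lies apart from that of Ctrl-KI.

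Id3, an inhibitor that binds E proteins and is a classical BMP target, had the highest log2 ratio of the family in the male knockout with the pseudocount of 1 FPKM; as a plain fold it was 3.43, and Id4 was 3.58. It was 109 FPKM in male WT (interval 31.6 to 187) and 375 in male KO cells (111 to 639), a log2 ratio of 1.77 that lay above 97.3% of all genes. The intervals overlapped, and the bounds allow a fold between 0.593 and 20.2. In females the value was lower in the KO library, 49.6 FPKM in WT (22.2 to 77.1) and 35.2 in KO cells (15.2 to 55.1), log2 ratio -0.48. Among the KI samples it was 27.7 FPKM in Ctrl-KI (22.3 to 33.1) and 35.6 in KI cells (28.7 to 42.5), log2 ratio 0.35, with overlapping intervals. The male table assigns Id3 a wider locus (mm9 chromosome 4, 135679053 to 135701307, 22255 bp) than the other tables (135699737 to 135701307, 1571 bp, the RefSeq gene length). Whether the wider locus bears on the male Id3 values was not tested.

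Id2, which also binds the retinoblastoma protein Rb1, was 21.8 FPKM in male WT (4.14 to 39.5) and 67.7 in male KO cells (17.7 to 118). This was a 3.10-fold higher value, log2 ratio 1.59, above 96.1% of all genes, again with overlapping intervals. Its locus was the same 2294 bp in all 3 tables (mm9 chromosome 12, 25778664 to 25780957). Id2 was the member highest in the female KO library, at 49.2 FPKM in WT (22.5 to 75.9) and 57.7 in KO cells (26.8 to 88.6), where the log2 ratio was 0.22. In the KI table it was 9.72 FPKM (7.74 to 11.7) and 12.0 (9.60 to 14.4), log2 ratio 0.28. The control values of Id2 ran from 9.72 in Ctrl-KI to 21.8 in male and 49.2 in female WT cells. These tables were estimated separately and their levels were not tested against each other.

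Id4, a family member known from neural precursor cells, was the lowest member in every column, between 1.14 and 1.91 FPKM in 5 of the 6. It was 1.61 FPKM in male WT cells and 5.77 FPKM in male KO cells, log2 ratio 1.37, but both intervals reached 0 (0 to 3.69 and 0 to 13.3), so the bounds give no upper limit to the fold. It was 1.82 and 1.91 FPKM in females and 1.14 and 1.20 among KI columns, log2 ratio 0.04 in each. Its locus on mm9 chromosome 13 was 2610 bp in the female table, 5005 bp in the male and 5014 bp in the KI table. With a pseudocount of 5 FPKM its male log2 ratio was 0.70 and the 2-fold call was lost.

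Id1, the founding member of the family, was the Id gene with the lowest ratio in males, at 108 FPKM in WT (30.5 to 185) and 150 in KO cells (44.1 to 257), log2 ratio 0.48. Its male locus (mm9 chromosome 2, 152552714 to 152563146) was 10433 bp, against 1137 bp in the female table. In females Id1 was 34.8 FPKM in WT (14.7 to 54.8) and 31.5 in KO cells (12.9 to 50.1), log2 ratio -0.14. For Ctrl-KI and KI cells Id1 was merged with the neighbouring gene H13, a signal peptide peptidase, on 1 locus of 68524 bp. The merged value was 92.5 FPKM in Ctrl-KI (72.4 to 113) and 77.1 in KI cells (59.6 to 94.6). On loci of its own H13 was 44.7 and 44.4 FPKM in the female table and 51.4 and 60.0 in the male table, so the merged value gives no level for Id1.

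Rescaling to TPM over all loci lowered every male ratio. It left Id3 at 0.97, Id2 at 0.79 and Id4 at 0.59 on the log2 scale, no longer past 2-fold but above the median of -0.70, and turned Id1 to -0.31. On that scale Id2, Id3 and Id4 were lower in KI than in Ctrl-KI cells, at -0.47, -0.45 and -0.34, above the median of -0.77. On both TPM scales the female ratio of Id1 turned positive, at 0.035.

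**Figure D2:**
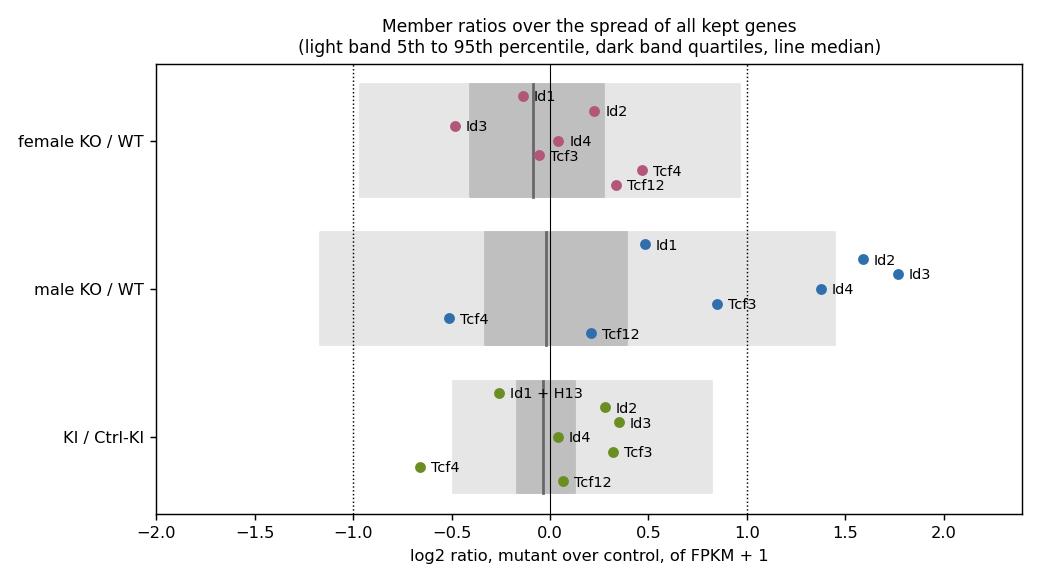
Log2 ratio of FPKM + 1, mutant over control, of the 7 genes (points) over the spread of all kept genes in each table (light band, 5th to 95th percentile; dark band, quartiles; line, median; dotted lines, 2-fold). Id2 and Id3 lie beyond the light band in the male table and Tcf4 lies below it in the KI table, whereas all 7 points lie within it in the female table.

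Among the E proteins the 3 tables differed in Tcf4. It was 48.8 FPKM in Ctrl-KI (39.6 to 58.0) and 30.5 in KI cells (24.7 to 36.2), 1.60-fold lower, log2 ratio -0.66. These intervals did not overlap, which held for 1 of the 7 members, against 12.0% of all genes (3.73% apart and lower). Its ratio lay above only 2.56% of all genes. Male KO cells were lower too, at 49.2 FPKM in WT (13.7 to 84.6) and 34.1 in KO cells (9.66 to 58.6), log2 ratio -0.51. Female KO cells were higher, at 37.0 FPKM in WT (15.4 to 58.5) and 51.5 in KO cells (22.5 to 80.5), log2 ratio 0.47. In both knockout tables the intervals overlapped.

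Tcf3, the E protein whose products were first found as partners of Myod1, was 23.6 FPKM in male WT (4.85 to 42.4) and 43.3 in male KO cells (11.6 to 75.1), a 1.83-fold higher value, log2 ratio 0.85. It reached 1.03, past 2-fold, with TPM over loci with a symbol and was 0.07 with TPM over all loci. In females it was 22.4 (9.88 to 34.9) and 21.5 FPKM (9.42 to 33.5), log2 ratio -0.06, which median-centring turned to 0.029 and TPM to 0.12. In the KI table it was 19.5 (15.8 to 23.2) and 24.6 FPKM (19.9 to 29.3), log2 ratio 0.32, or -0.47 with TPM over all loci. The female and male tables place it on mm9 chromosome 10, 79871910 to 79896398.

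Tcf12, also called HEB, was the E protein with the smallest range of ratios. It was 25.6 (11.8 to 39.4) and 32.6 FPKM (15.2 to 49.98) in the female columns, log2 ratio 0.33. The male values were 45.5 (12.4 to 78.6) and 52.7 FPKM (12.2 to 93.3), log2 ratio 0.21, or -0.56 with TPM over all loci. Ctrl-KI and KI cells had Tcf12 at 43.9 (35.5 to 52.3) and 46.0 FPKM (37.2 to 54.7), log2 ratio 0.07, or -0.74 with TPM over all loci. All of these pairs had overlapping intervals. Its locus, mm9 chromosome 9 from 71692059, was 267568 bp in the female, 270872 bp in the male and 270982 bp in the KI table.

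Taking the 2 within-sex ratios as 2 measurements of the KO effect, limma called 0 of the 7 members at an adjusted p below 0.05 (Benjamini-Hochberg over 10525 genes) and 0 at an unadjusted p below 0.05. Over all genes it called 1 gene higher (0.00950%), Gt(ROSA)26Sor, the transcript of the Rosa26 locus, and 0 lower, and 19.7% of genes had an unadjusted p below 0.05. Id2 came nearest, with a mean log2 ratio of 0.91 ± 0.36 (moderated SE) and an adjusted p of 0.255 by limma; its ratio was above 0 in both sexes. Id3 had a mean of 0.64 ± 0.53 (adjusted p = 0.565 by limma), from female and male ratios of opposite sign. The adjusted p of the 7 members ran from 0.255 to 0.976. The difference between the sexes is the only error in this fit, with 1 residual degree of freedom before moderation.

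FPKM is scaled by length, so the 7 transcripts can be ranked within a column. In female WT cells the order was Id3, Id2, Tcf4, Id1, Tcf12, Tcf3 and Id4, and only Id4 had an interval apart from its neighbour. In male WT cells Id3 and Id1 came first, at 109 and 108 FPKM, then Tcf4, Tcf12, Tcf3 and Id2, with Id4 again apart. In male KO cells the order was Id3, Id1, Id2, Tcf12, Tcf3, Tcf4 and Id4, and no neighbouring pair had intervals apart. In Ctrl-KI cells, leaving out the merged Id1 locus, Tcf4 and Tcf12 were level within their intervals. They stood apart from Id3 below them, Id3 and Tcf3 overlapped, and Id2 and then Id4 stood apart in turn. In KI cells Tcf12 came first, with Id3, Tcf4 and Tcf3 behind it, each overlapping its neighbour.

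The balance of inhibitors to E proteins was read as the summed FPKM of Id1 to Id4 over the summed FPKM of Tcf3, Tcf4 and Tcf12 in the same column, a ratio that a column-wide scale cannot move. In males it was 2.03 in WT and 4.60 in KO cells, 2.26-fold higher, with brackets from the deposited bounds of 0.322 to 13.4 and 0.761 to 30.7. In females it was 1.59 in WT and 1.20 in KO cells, with brackets of 0.448 to 5.69 and 0.335 to 4.20. The male difference came from the numerator, 240.3 and 599 FPKM, as the E protein sum was 118 and 130.2 FPKM. Without Id1, which the KI table does not resolve, the ratio was 1.12 and 3.44 in males, 1.18 and 0.898 in females, and 0.344 and 0.483 in the Ctrl-KI and KI columns. The last pair had brackets of 0.231 to 0.509 and 0.326 to 0.714, which overlap. This version without Id1 was chosen after the data were seen. There is no replicate error for any of these ratios.

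Within the E protein sum the make-up also differed. Tcf4 was 43.5% of the sum in the female and Ctrl-KI controls and 41.6% in the male control. It was 48.8% in female KO, 26.2% in male KO and 30.2% in KI cells. Tcf3 was 20.0% in male WT cells and 33.3% in male KO cells, 17.4% in Ctrl-KI and 24.3% in KI cells, and 26.3% and 20.4% in female WT and KO cells. Within the Id sum, Id3 was 45.5% in male WT cells and 62.6% in male KO cells, while Id1 was 44.7% and 25.1%.

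**Figure D3:**
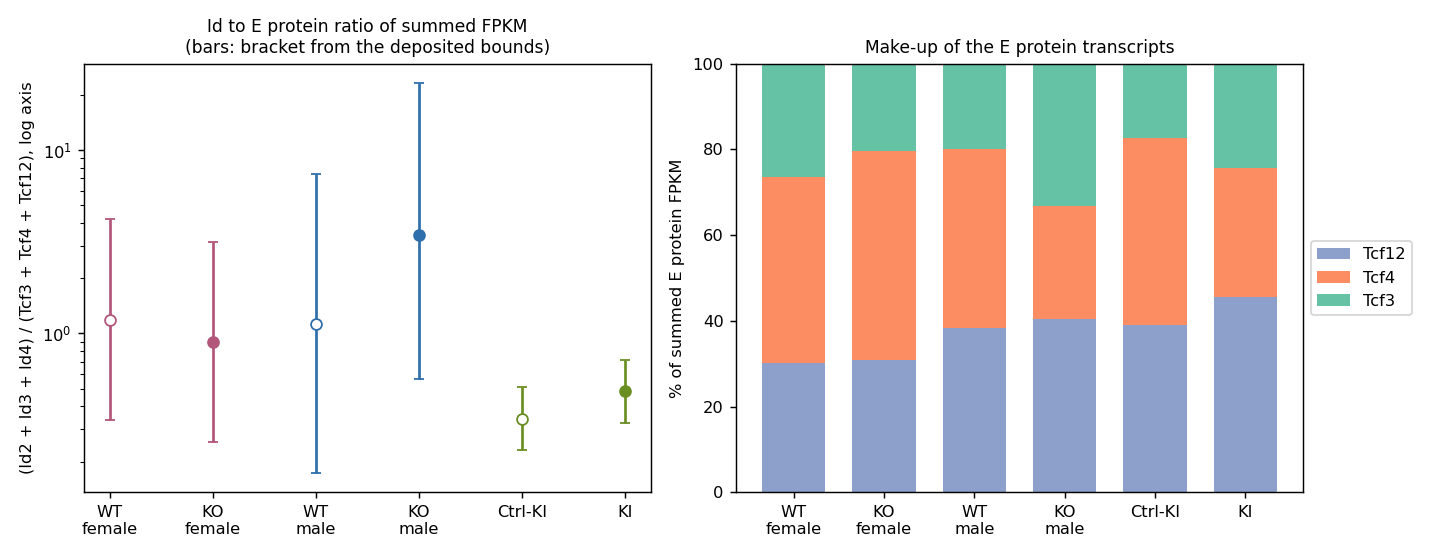
Left, summed FPKM of Id2, Id3 and Id4 over that of Tcf3, Tcf4 and Tcf12 in each column (log axis), with brackets from the deposited bounds as bars; right, each E protein's percentage of the E protein sum. The ratio is 1.12 in male WT cells and 3.44 in male KO cells with overlapping brackets, and the Tcf4 part is 26.2% in male KO and 30.2% in KI cells against 41.6% and 43.5% in their controls.

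The partners of E proteins in muscle lay lower in both knockouts. All 4 myogenic bHLH factors lay below WT in each knockout table, with a median log2 ratio of -0.77 in females and -1.22 in males, where the medians of all genes were -0.08 and -0.02. Of these, Myf6 was kept only through the WT column in both sexes, so the filter fixed its direction. Myog (myogenin), needed for muscle fibre formation, was 3424 FPKM in male WT cells and 961 FPKM in male KO cells, log2 ratio -1.83. Myf6, the late myogenic factor, was 4.12 and 0.345 FPKM there, log2 ratio -1.93, and 3.91 and 0.769 in females, log2 ratio -1.47. Myod1, the myoblast determination factor, was 1005 (WT) and 701 FPKM (KO) in males, 189.9 and 104 in females, and 906 and 620 in the Ctrl-KI and KI columns. Myf5, an early myogenic factor, was 12.5 and 7.69 FPKM in females, 5.38 and 3.17 in males, and higher in KI (8.76) than in Ctrl-KI cells (5.91). Intervals overlapped for all 4 genes in the 3 tables. The summed myogenic factors were 33.4 times the sum of Id2, Id3 and Id4 in male WT and 3.71 times in male KO cells. The corresponding values were 15.0 and 9.80 in females and 107 and 70.9 in Ctrl-KI and KI cells. Against the E protein sum they were 37.5 and 12.8 in males, 17.8 and 8.80 in females, and 36.7 and 34.2 in Ctrl-KI and KI cells.

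Muscle genes with E-box controlled promoters or enhancers were lower in the same libraries. Of 16 such genes 12 were 2-fold lower in female KO and 10 in male KO cells, with 0 above WT in either. Over all genes, 4.40% of the female and 6.47% of the male table were 2-fold lower. The lowest was Ckm, muscle creatine kinase, at 147 and 20.2 FPKM in females (log2 ratio -2.81) and 110.0 and 6.82 in males (log2 ratio -3.83), with intervals apart in both. Nearest to WT were Cdh15, a muscle cadherin, in females (74.0 and 46.1 FPKM) and Chrnb1, an acetylcholine receptor subunit, in males (182 and 106 FPKM). Among KI ratios 0 of 15 loci were past 2-fold (median -0.26). Itga7, the muscle laminin receptor subunit, was lowest there at 259 and 168 FPKM with intervals apart. The highest there was the locus that merges Tnni2 with Syt8, at 56.4 and 70.5 FPKM.

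**Figure D4:**
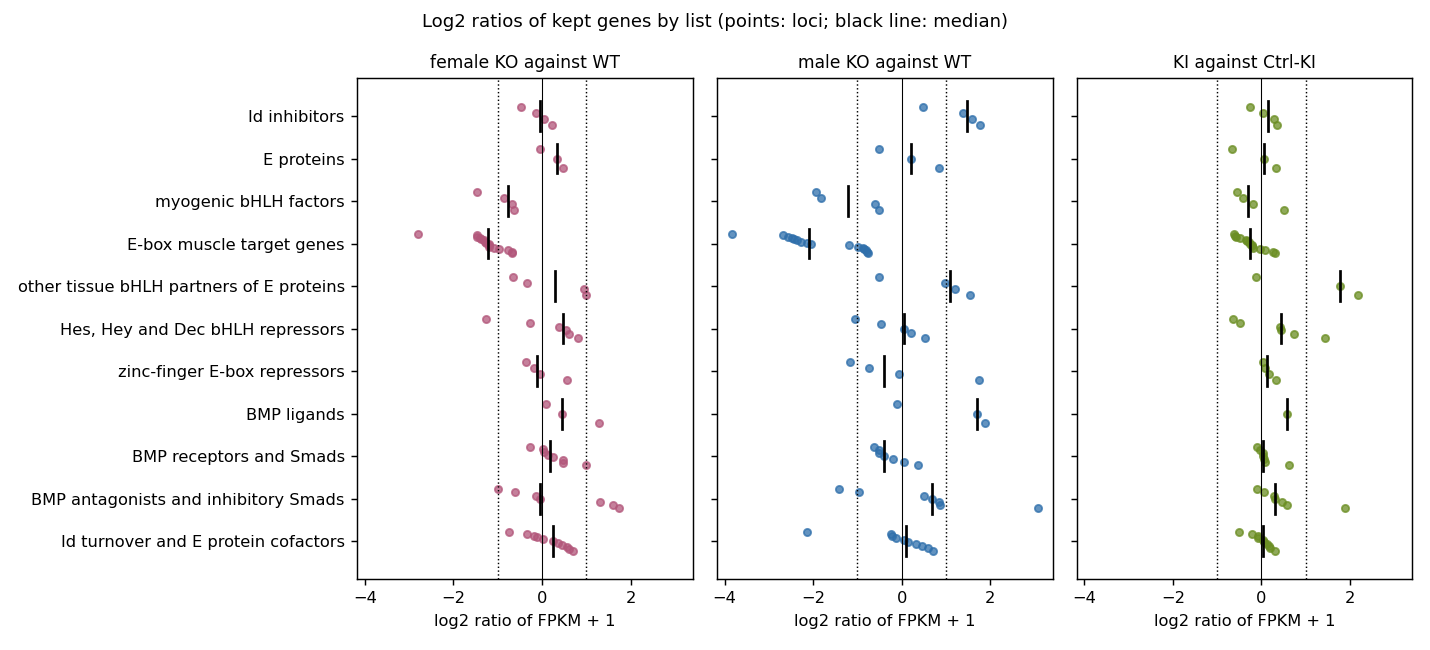
Log2 ratios of FPKM + 1 for the kept genes of each list (points, 1 per locus; black line, median; dotted lines, 2-fold) in the 3 tables. The 4 Id points lie to the right of 0 in the male table, on both sides of 0 in the female table, and 3 of 4 lie to the right in the KI table. The myogenic bHLH factors and E-box muscle targets lie to the left of 0 in both knockout tables.

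Genes of the BMP pathway, a known inducer of Id genes, did not differ in a single direction. Of the ligands kept, 1 of 3 was 2-fold higher in female KO cells (Bmp6, 2.24 and 6.91 FPKM), against 4.49% of all genes. In male KO cells 2 of 3 were, against 9.90% of all genes. These 2 were Bmp4 (0.0997 and 3.02 FPKM) and Bmp6 (0.0565 and 2.42 FPKM), both kept only through the KO column, so the filter fixed their direction. Bmp2 was the lowest ligand in males (1.50 and 1.31 FPKM), Bmp4 in females (1.08 and 1.23 FPKM), and Bmp2 was the sole one kept in the KI table (1.97 and 3.44 FPKM, intervals apart). Among receptors and Smads 0 of 8, 0 of 7 and 0 of 7 were past 2-fold in the female, male and KI tables, with medians of 0.18, -0.41 and 0.05. The BMP receptor Bmpr1a was lowest in both knockouts, at 47.3 and 38.9 FPKM in females and 44.3 and 28.6 in males. Smad1, a Smad that BMP receptors activate, was lowest in the KI table at 33.9 and 31.7 FPKM. The highest were the receptor Acvrl1 in females (2.10 and 5.19 FPKM) and the receptor Bmpr1b in males (0.611 and 1.09), a gene also highest among KI ratios (0.755 and 1.69, intervals apart). In both tables Bmpr1b was kept only through the mutant column, which fixed its direction.

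Of the 7 BMP antagonists and inhibitory Smads kept in the male table, 1 was 2-fold higher and 1 was 2-fold lower in KO cells. Over all genes of that table these shares were 9.90% and 6.47%. Gremlin, Grem1, was 7.60 FPKM in male WT cells and 71.0 FPKM in male KO cells, log2 ratio 3.07, with intervals apart. Chordin, Chrd, was lowest in females at 79.3 and 39.2 FPKM, follistatin, Fst, lowest in males at 106 and 38.8, and noggin, Nog, lowest in the KI table at 9.31 and 8.69. Smad6 and Smad7, inhibitory Smads that BMP signalling induces along with Id genes, are named after their values were seen. Smad6 was 4.43 and 8.83 FPKM in males, 5.03 and 4.83 in females and 3.11 and 4.68 in the KI table. Smad7 was 7.14 and 13.6 FPKM in males, 18.2 and 46.6 in females and 5.99 and 9.38 in the KI table, where its intervals were apart.

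Other factors that read E-boxes or pair with E proteins gave mixed values. Of 12 tissue bHLH partners 4, 4 and 3 were kept in the female, male and KI tables, of which 0, 2 (Twist1 and Tal1) and 2 (Twist1 and Twist2) were 2-fold higher and 0 lower. All of these calls are of genes kept only through the mutant column, so the filter fixed their direction. Over all genes, 4.49%, 9.90% and 3.86% were 2-fold higher in the female, male and KI tables. Twist1, a mesenchymal bHLH factor that also binds E proteins, was highest in the male and KI tables, with 0.309 and 2.82 FPKM in males and 0.472 and 5.70 in KI. Its relative Twist2 was highest in females at 1.34 and 3.64 FPKM. Scleraxis, Scx, a tendon factor, was lowest in each table, at 12.9 and 7.83 FPKM in females, 129.7 and 90.5 in males, and 92.4 and 84.5 among KI columns. Its intervals reached down to 0 in each female column (up to 49.5 and 45.0) and each male column (up to 312 and 213). In KI and Ctrl-KI cells they overlapped. Of the Hes, Hey and Dec repressors 1 of 6 in females and 1 of 5 in males was 2-fold lower, where 4.40% and 6.47% of all genes were. In KI 1 of 6 was 2-fold higher, where 3.86% of all genes were. Hes6, which is expressed in differentiating myoblasts, was lowest in females (171 and 70.0 FPKM) and in KI (241 and 154, intervals apart). Bhlhe41 was lowest in males (26.1 and 12.0 FPKM) and Hes1, a Notch target, was highest there (42.1 and 60.6). Bhlhe40 was highest in females (109 and 193 FPKM) and in KI (5.62 and 17.0, intervals apart).

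The zinc-finger repressors Snai1, Snai2, Zeb1 and Zeb2 bind E-boxes as well. Snai2 was 7.53 and 27.6 FPKM in male WT and KO cells, log2 ratio 1.75, while Zeb1 was 37.3 and 16.1, log2 ratio -1.16. Snai1 was 20.4 and 11.9 FPKM there, and Zeb2, merged with Mir5129, 19.1 and 18.4. In females and in KI cells 0 of the 4 were past 2-fold. Of the genes for Id turnover and E protein cofactors, 0 of 11 in females, 1 of 10 in males and 0 of 10 in the KI table were past 2-fold. The exception was Cbfa2t3, a corepressor of the family that binds E proteins, at 11.7 and 1.91 FPKM, log2 ratio -2.13. It was the lowest of this list in the other tables too (8.16 and 4.43 FPKM in females, 11.5 and 7.81 in KI). The highest were Smurf2, a ubiquitin ligase, in females (19.6 and 32.4 FPKM) and in KI (20.1 and 25.1), and Usp1, the enzyme that removes ubiquitin from Id proteins, in males (6.64 and 11.4).

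Dividing-cell, endothelial, fibro-adipogenic and immune markers had higher sums in male KO than in male WT cells. The sum of pericyte and smooth muscle markers was lower, but it was mostly the value of Acta2. All 8 cell cycle genes were 2-fold higher in male KO cells, against 9.90% of all genes. Mki67 among them was kept only through the KO column. The 8 genes summed to 61.4 (WT) and 511 FPKM (KO) there. Most of both male sums was Ccnd1, at 43.3 and 410 FPKM with overlapping intervals. In females Ccnd1 was lower in KO (3.65 FPKM) than in WT cells (4.55). There 4 of 8 were 2-fold higher, against 4.49% of all genes, with sums of 37.4 and 87.0 FPKM, and 0 of 6 were in KI cells. The 10 endothelial markers summed to 2.07 FPKM in male WT cells and 70.8 FPKM in male KO cells. The sum was led by Emcn (0.0268 and 40.6 FPKM) and Cdh5 (0.0388 and 12.3), while Kdr was 0.0149 and 0.122. Pecam1 was 0.0510 and 3.20 FPKM. Tie1 (0 and 0.0404 FPKM), Cldn5 (0.0221 and 0.0226) and Vwf, which was lower in male KO cells (0.697 and 0.559), were below the filter. Of the 10 endothelial markers 4 passed the filter in males, 3 of them only through the KO column. All 4 were 2-fold higher, against 9.90% of all genes. In the female table the 10 markers summed to 22.1 and 33.9 FPKM and 0 of 7 kept were past 2-fold. There 6 of the 7 lay above WT, and Vwf lay below it (3.07 and 1.96 FPKM). Fibro-adipogenic markers, those of the connective tissue cells of muscle, summed to 18.2 and 66.3 FPKM in the male, 228 and 552 in the female and 9.63 and 305 in the KI table. The male sums were mostly the value of Col3a1 (16.4 and 59.1 FPKM). For KI, 5 of the 6 kept passed only through the KI column, which fixed their direction, among them Col1a1 at 0.515 and 158 FPKM. The other, Col3a1, was 8.72 and 112 FPKM. Pdgfra, the defining marker of these cells, was 0.179 and 0.697 FPKM in males, 2.46 and 13.7 in females and 0.162 and 1.19 in KI. Immune markers summed to 0.704 and 8.20 FPKM in males and to 0.293 and 32.2 in Ctrl-KI and KI cells, led by Lyz2 (0.681 and 7.94, then 0.282 and 31.0), with Ptprc at 0.00345 and 0.224 in the latter pair. Pericyte and smooth muscle markers summed to 2087 and 855 FPKM in males, 777 and 454 in females and 2339 and 2013 in Ctrl-KI and KI cells. Most of that was Acta2, an actin gene that differentiating myoblasts also express, at 2000.3 and 724 FPKM in males. Rgs5 (2.06 and 6.40 FPKM) and Pdgfrb (0.269 and 0.655) were higher in male KO cells. So were Myh11 (0.0737 and 0.228) and Tagln (83.4 and 123.8), whereas Cspg4 was lower (0.601 and 0.266). In males Pdgfrb, Myh11 and Cspg4 were below the filter. Tagln did not have an OK status flag there, and its KO value lay above its own upper bound of 121 FPKM, so its direction is uncertain. Pdgfrb was 0.442 FPKM in Ctrl-KI against 26.7 in KI cells. Schwann markers with rows of their own summed to less than 1 FPKM in each male and KI column. The part of these cells and of cell division in the Id and E protein values was not tested.

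For each member with a row of its own in all tables, the 3 genes nearest in their female, male and KI log2 ratios were taken from 7088 genes with at least 5 FPKM in 1 column of every table. Nearest to Id2 (0.22, 1.59 and 0.28) were Rgs3, Hn1l and Coro1c, at Euclidean distances of 0.0780 to 0.174. Id3 had more distant neighbours, Pfn2, Neat1 and Tmem120a, at 0.173 to 0.360. Id4 was nearest to Ap3s1, Obfc2a and Suv39h1. Tcf3 was nearest to Pmm1, Nans and Pon2, and Tcf12 to Wsb1, Toe1 and 2010109K11Rik. Tcf4, the gene that was higher in female KO and lower in male KO and KI cells, was nearest to Sh2b2, Fam49a and Srgap3, at 0.141 to 0.237. Likeness over 3 ratios from single columns is a description of these libraries.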

How the data were processed

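The 8 libraries form 6 groups by title. Per the file headers, the authors supplied FPKM values with confidence bounds and a status flag for every locus, in 3 tables. Build mm9 and, without roles, edgeR, Cuffdiff, bedtools 2.16.2, HTSeq 0.6.1, Cufflinks 2.2.1, TopHat2 2.0.12 and Bowtie2 2.2.4 are listed in the submitters' processing notes. The KI table holds 1 pooled column per group, so the planned limma test across its replicates was not possible.

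Loci without a symbol (female 0, male 5680, KI 5971) and loci with a symbol but without status OK in both columns (6, 61 and 15) were left out, and genes with at least 1 FPKM in 1 column were kept. Sums over the cell cycle and cell type marker lists also took loci below that filter or without status OK, but no merged loci. Tagln in males was such a locus without status OK. Table starts count from 0, since the widths of Id2 and Id3 equal their RefSeq lengths only so, and are printed 1 higher. Ratios were formed within a table with a pseudocount of 1 FPKM, which understates the change of low genes. The KO effect over both sexes was fitted with limma 3.58.1 (R 4.3.3) with a trend on mean expression. Its script was tested on simulated data. No source used here says whether counting used strand, so overlapping genes are uncertain. Whether libraries stand for separate animals is not stated. Tables were handled with python 3.11.15 and pandas 2.3.3.

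The members, lists, settings and naming rule were chosen with earlier results of these data known. Named are the 7 members, of each pathway list the highest and lowest kept gene per table (all of a list of 4 or fewer), defining cell type markers, and the 3 nearest genes of each member. Some results that this rule names are not reported here. Any further gene was picked with its values already in view. The alternatives changed the pseudocount (0.1 or 5 FPKM) or the filter (none or 5 FPKM), or used median-centring, TPM over all loci or over loci with a symbol, every status, interval calls, a fit without trend, and a fit with the KI ratio added. For the Id to E protein ratio they were Id4 left out, Tcf12 alone, and merged loci left out.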

Additional observations from a re-analysis of the deposited data

Results flagged for a closer look

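For 4 of the 7 members the female and male KO ratios have opposite signs, with 1 library per group, so the difference between the sexes was not tested. Over the 10525 genes kept in both sexes, 33.5% had opposite signs, and with 7 members nothing is read from the difference between these shares. The male minus female difference in log2 ratio was 2.25 for Id3 (-0.48 in females, 1.77 in males), 0.90 for Tcf3 (-0.06 and 0.85), 0.62 for Id1 (-0.14 and 0.48) and -0.98 for Tcf4 (0.47 and -0.51). The opposite signs of Id3 and Tcf4 were present under all 8 other filters, pseudocounts and scales. Id1 was above 0 in both sexes with TPM over loci with a symbol (0.035 in females), and with TPM over all loci its signs were swapped (0.035 in females, -0.31 in males). Tcf3 was above 0 in both sexes with median-centring (0.029 in females) and with either TPM (0.12 in females). Deposited intervals overlapped for all 4 genes in both sexes.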

How the results depend on the processing

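Of 166 member ratios under other pseudocounts, filters, scales and status rules, 154 stayed within the deposited bounds and on their side of 2-fold, 12 did not, and 0 of those past 2-fold changed sign. For other named genes the counts were 2203, 234 and 0 of 2437. The 3 members past 2-fold in males became 1 (Tcf4, lower) with TPM over all loci and 0 by intervals apart. The 0 members of the KI table became 2 with TPM over all loci (Tcf4 and the merged Id1 locus, both lower) and 1 by intervals apart (Tcf4). With Tcf12 alone as denominator the Id to E protein ratio was 2.99 in Ctrl-KI and 2.74 in KI cells, and without the merged locus, or without Id1 in every table, 0.344 and 0.483, against 1.17 and 1.25 with it. In the joint fit the mean of Tcf4 turned from -0.02 to 0.029 with median-centring and to 0.15 with TPM over loci with a symbol. With TPM over all loci Id1 turned from 0.17 to -0.14 and Tcf12 from 0.27 to -0.020. The joint fit called 0 members under every alternative run.

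Over all genes, 554 were 2-fold higher in female KO cells, and 938, 196 and 1197 with pseudocounts of 0.1 and 5 FPKM and with either TPM, and 543 lower became 246 with 5 FPKM. In males 1132 higher became 443 with 5 FPKM, 253 with TPM over all loci and 1799 over loci with a symbol, and 740 lower became 475 and 2521 with the former 2. For KI, 428 higher became 177 with 5 FPKM, 262 with a filter of 5 FPKM, 196 with TPM over all loci and 679 over loci with a symbol. There 99 lower became 168 and 47 with pseudocounts of 0.1 and 5 FPKM and 1683 with TPM over all loci. By intervals apart, higher and lower were 82 and 29, 69 and 30, and 917 and 413, for females, males and KI. The joint fit called 1 gene, 20 with a filter of 5 FPKM, 111 with TPM over all loci, and 0 with either other pseudocount, no filter, median-centring, no trend or the KI ratio added. The cause of these differences was not tested. No paired analysis was possible because both KI libraries, and both Ctrl-KI libraries, were pooled into 1 column, and for the same reason no replicate could be left out. Depth is unknown, and the wide male intervals limit what that table can separate.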
